A study of Mus musculus with 4 samples.

Results

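The control-only shared regions are stretches of mouse autosomes that were called accessible in untreated fibro/adipogenic progenitors (FAPs) of both young and old mdx mice and in neither library made after trichostatin A (TSA). They were chosen by the calls themselves: regions of the 4 library lists were joined where they met, and an autosomal merged region was kept if it held a call of both control libraries and none of either TSA library. The rule gave 2417 regions among 163967 autosomal merged regions, or 1.47% (95% exact binomial interval 1.42 to 1.53%). Together they spanned 4.53 Mb. The absence of a TSA call is what chose them, so that absence is given here as a description and not as a result.

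FAPs are mesenchymal cells of the muscle interstitium that help muscle stem cells after injury and can turn into fibroblasts or fat cells. In the mdx mouse, which lacks dystrophin and models Duchenne muscular dystrophy, muscle is damaged and repaired throughout life, and FAPs are a known source of the scar and fat that replace it. Histone deacetylases remove acetyl groups from histone tails, which is generally associated with compact chromatin, and TSA inhibits these enzymes. A region that is accessible without the inhibitor and closed with it would run against the direction usually expected of such a drug. A missing call, as used by the rule here, does not show that a region was closed. In NA-seq a restriction enzyme is let into intact nuclei, and the places it can cut are read out as accessible chromatin.

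The study profiled C57BL/6 mdx mice in 4 groups, each represented by 1 library: control and TSA-treated, at a young and an old age. TSA animals had daily intraperitoneal injections of 0.5 mg per kg for 15 days, and control animals had saline, although their treatment is labelled as none. All groups carried the mdx mutation, so there was no dystrophin-positive comparison. Neither the ages in weeks nor any pooling of animals is stated in the labels. FAPs were sorted from hind limb muscle as Sca-1 positive cells without the markers Ter119, CD45, CD31 and α7 integrin. Region lists carry no expression, so the identity of the sorted cells could not be checked against marker genes.

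The libraries held 43335 called regions in young control, 80122 in young TSA, 97139 in old control and 87416 in old TSA. The lists give positions only, without counts or scores, so the depth behind a call is unknown, and absence from a list shows a missing call rather than closed chromatin. Since each group is 1 library, the variation between animals is unknown and no p-values are given. Intervals are 95% exact binomial (Clopper-Pearson) intervals that take each region as an independent draw and so reflect counting error alone. Coordinates are of the mouse build mm9 and count from 1. They were not joined to genes or sequences, because the tables used here are of the build GRCm38.

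Control-only shared regions were among the rarest of the 15 possible patterns of calls. Of the 37575 autosomal regions called in exactly 2 libraries, they made up 6.43%. The most frequent pair was old control with old TSA, at 11916 regions. The mirror pattern, called in both TSA libraries and in neither control, held 8510 regions, 3.52 times as many. The only rarer pair was the crossed pattern of young control with old TSA, at 2292 regions, which share neither age nor treatment. The count of regions shared by the controls was 1.05 times this crossed count. Likewise, the regions shared by the TSA libraries alone numbered 0.949 times those of the other crossed pair, young TSA with old control, of which there were 8970. These counts describe the calls that the rule used. The partners compared differ in list length, with 97139 called regions in old control and 87416 in old TSA. In both comparisons the pair with old control had the larger count. Whether treatment adds to the sharing was not tested. All 3 pairs that include the young control, the shortest list, were less frequent than the other 3 pairs.

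**Figure D1:**
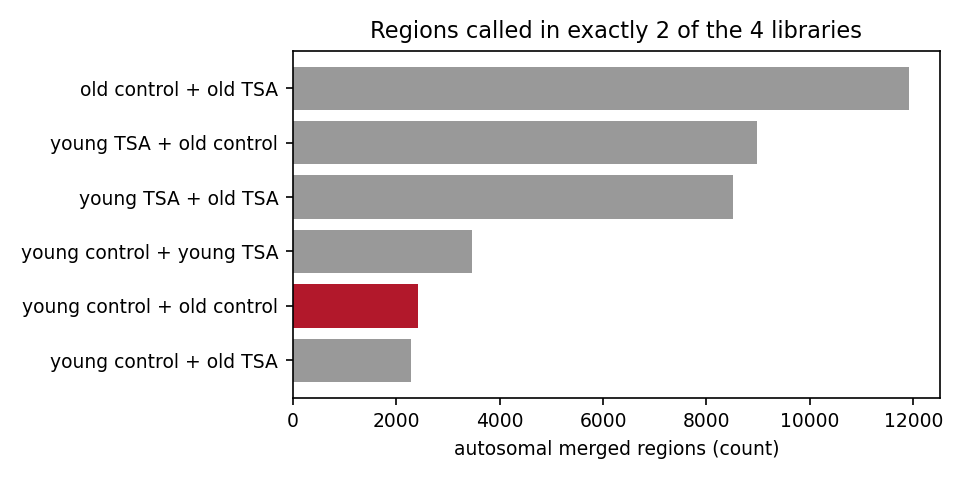
Bars give the number of autosomal merged regions (x axis) called in exactly 2 of the 4 libraries, for each of the 6 pairs. The control-only shared regions (red, 2417) lie next to the crossed pair of young control and old TSA (2292), and all pairs with young control are below the others.

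Most regions called in both controls also met a call made after TSA. When the control lists alone were merged, 21957 autosomal regions were called in both. Of these, 89.0% touched or overlapped a TSA call and 11.0% were the control-only shared regions. Young control regions were called in old control less often the fewer TSA libraries had called them. Among the 13394 young control regions without any TSA call, 18% (17.4 to 18.7%) were called in old control. Among those called in young TSA but not old TSA the share was 44.8% (43.6 to 46.1%), and among those called in old TSA but not young TSA it was 49.1% (47.7 to 50.6%). Among those called in both TSA libraries it was 81.6% (81.0 to 82.2%).

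From the old side the extremes came in the same order, while the groups between them came in the reverse order. Of the 35204 old control regions without a TSA call, 6.87% (6.60 to 7.13%) were called in young control, against 45.2% (44.7 to 45.8%) of those called in both TSA libraries. The share was 23.9% (23.1 to 24.7%) for those called in young TSA but not old TSA. For those called in old TSA but not young TSA it was 15.7% (15.1 to 16.3%). Wider regions overlap other lists more often by construction, and regions called in more libraries were wider. The 18% of TSA-free young control regions found in old control can be set beside 2 shares of the same kind. Of the young control regions missing from young TSA and old control, 17.3% (16.6 to 17.9%) were called in old TSA. Of those missing from both old libraries, 24.0% (23.3 to 24.7%) were called in young TSA, which shares their age but not their treatment. The list lengths differ (97139 regions in old control, 87416 in old TSA and 80122 in young TSA), and what sets these shares apart was not tested. Of old control regions missing from young control and old TSA, 21.5% (21.1 to 21.9%) were called in young TSA. The 6.87% above refers to calls in young control, whose list of 43335 regions is shorter.

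**Figure D2:**
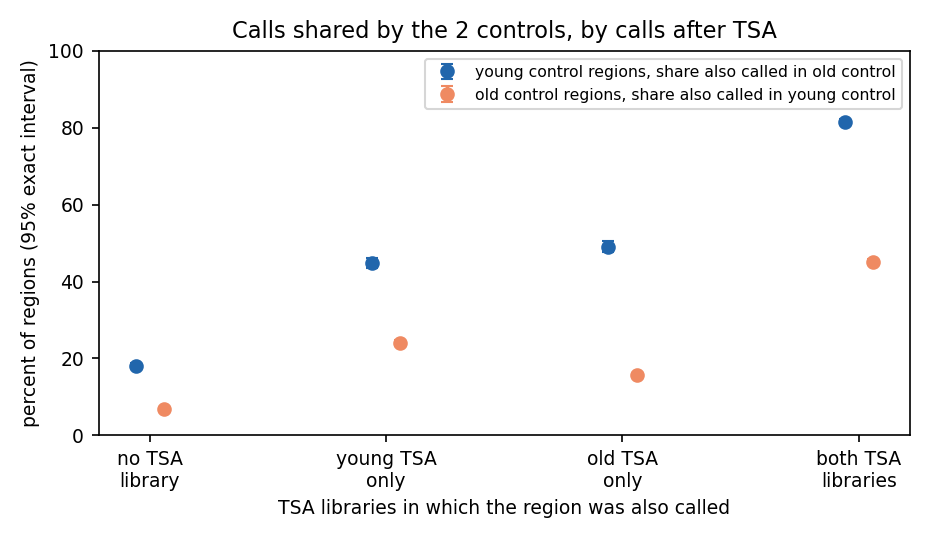
Points give the percent of autosomal merged regions of a control library (y axis) that the other control also called, split by the TSA libraries in which the region was called (x axis), with 95% exact intervals that cover counting error only. The leftmost points are the control-only shared regions as a share of all TSA-free regions, 18% from the young and 6.87% from the old side, and the rightmost are 81.6% and 45.2%.

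The regions were mostly simple pairs of calls. In 2398 of the 2417, a single young control call met a single old control call. In 13 regions a young call joined 2 old calls, and in 6 an old call joined 2 young calls. The merged regions had a median width of 1900 bp (quartiles 1600 and 1900 bp, longest 4600 bp). The TSA-only shared regions had the same median and quartiles, and regions called in all 4 libraries had a median of 2500 bp.

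The young control calls inside these regions were narrow. Their median width was 1300 bp, the same as for regions called in young control alone, and 1800 bp for young control calls in regions of all 4 libraries. Calls of exactly 1000 bp, the shortest in any list, made up 19.6% (18.1 to 21.3%) of them, against 23.1% (22.3 to 23.9%) of calls unique to young control and 8.44% (8.00 to 8.89%) of those shared by all 4 libraries. The young control calls shared with old TSA alone were alike in this respect, with a median of 1300 bp and 18.9% (17.3 to 20.5%) at 1000 bp. The old control calls were wider, with a median of 1600 bp, compared with 1400 bp for regions called in old control alone and 1800 bp for those shared with young TSA alone. Calls of exactly 1900 bp, the most frequent width in old control, were 28.6% (26.8 to 30.4%) of the old control calls in control-only shared regions and 23.4% (22.9 to 23.8%) of those unique to old control. Among those shared with young TSA alone they were 34.8% (33.8 to 35.8%). In both libraries the calls of control-only shared regions were thus closer in width to calls found in 1 library than to calls found in all 4.

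**Figure D3:**
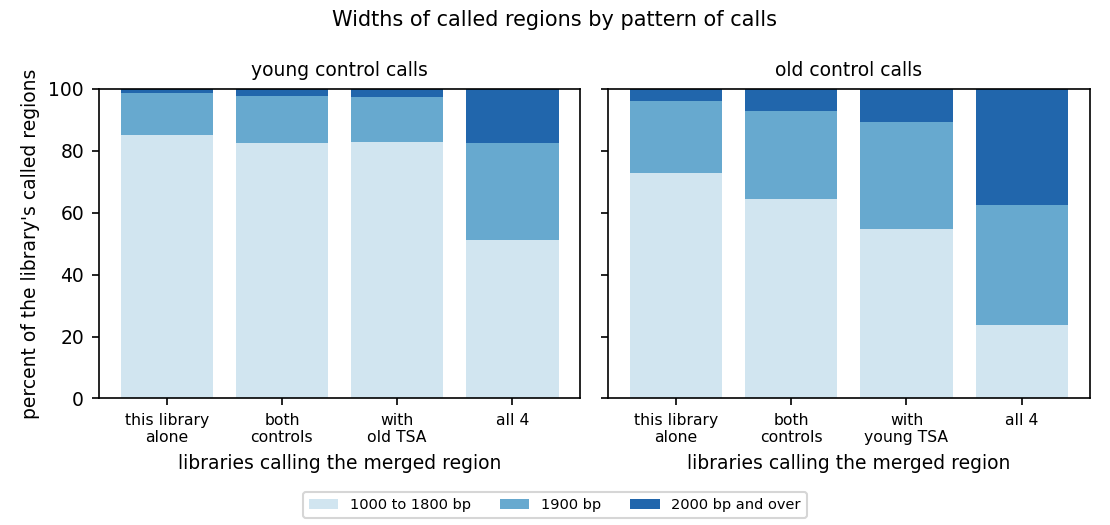
Stacked bars give the percent of called regions (y axis) of young control (left) and old control (right) that were 1000 to 1800 bp, 1900 bp or 2000 bp and wider, by the libraries that called the merged region (x axis). In control-only shared regions 82.7% of young and 64.3% of old control calls were under 1900 bp, against 51.1% and 23.6% in regions of all 4 libraries.

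Among TSA-free regions, wider calls were found in the other control more often than narrow ones. Of young control calls of 1000 to 1200 bp, 16.6% (15.7 to 17.5%) lay in control-only shared regions. For calls of 1900 bp the share was 19.6% (17.8 to 21.4%), and for calls of 2000 bp and over it was 28.4% (22.0 to 35.5%), the last of only 183 calls. From the old side the shares were 5.48% (5.11 to 5.87%) at 1000 to 1200 bp, 8.31% (7.72 to 8.92%) at 1900 bp and 12.0% (10.3 to 13.8%) at 2000 bp and over. From the young side, the interval in each width class overlapped that of the calls shared with old TSA alone. Their share was 15.5% (14.6 to 16.4%) in the narrowest class and 18.1% (16.4 to 20.0%) at 1900 bp. From the old side, the share of calls found in young TSA alone was higher, with no overlap of intervals in any class. It was 14.2% (13.7 to 14.8%) in the narrowest class and 29.1% (28.2 to 29.9%) at 1900 bp. The young TSA list is longer than that of young control.

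The calls of the 2 controls did not coincide closely. Among the 2398 simple pairs, 273 (11.4%, 10.1 to 12.7%) had the same start and the same end, on a grid of 100 bp. A further 430 shared the start only and 437 the end only, and 1258 shared neither. The TSA-only shared regions had identical calls in 21.0% of cases (20.2 to 21.9%), and the pairs of young control with young TSA in 20.1% (18.8 to 21.5%). The crossed pair of young control and old TSA, at 12.8% (11.4 to 14.2%), had an interval that overlapped that of the control pair. The control calls of regions found in all 4 libraries were identical in 17.4% (16.8 to 18.1%), although these calls were wider.

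The median length common to both calls was 1100 bp, or 64.7% of the length covered by either. This share was the lowest of the 6 pairs of libraries, the next being 68.8% for young control with old TSA, while TSA-only shared regions had 76.9%. In 171 of the pairs (7.13%) the calls had less than 500 bp in common, and 21 of these only touched. The old call was wider in 1261 pairs and the young call in 716. The young call lay inside the old call in 894 pairs and the reverse held in 459. In 751 pairs the calls were staggered, each reaching beyond the other. Starts fell within 500 bp of each other in 73.8% of the pairs.

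**Figure D4:**
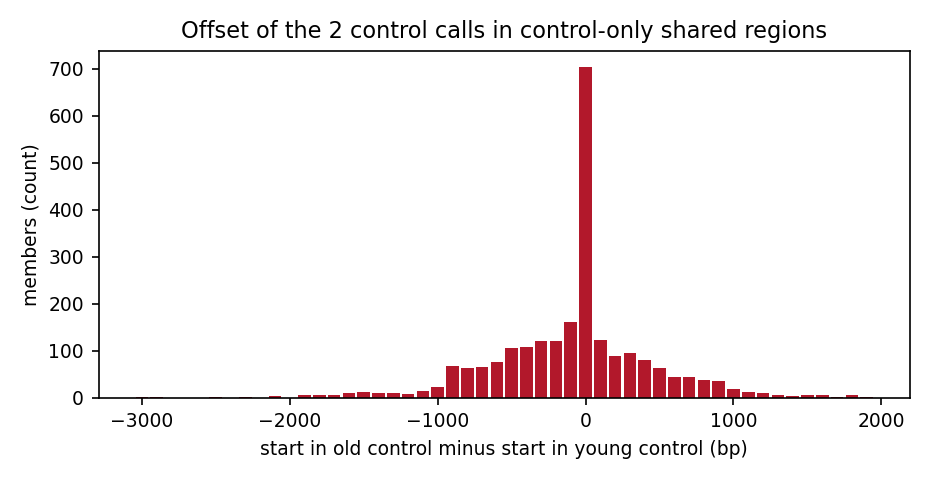
Bars give the number of control-only shared regions with 1 call per control (y axis) at each offset between the start in old control and that in young control (x axis, bp, steps of 100 bp). Of the 2398 regions, 703 had the same start, 1008 started earlier in old control and 687 later, with a tail of offsets beyond 1000 bp on both sides.

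The 10 widest control-only shared regions show how such regions are built (regions on chromosome 18 are not named). The widest, of 4600 bp, lay on chromosomes 7, 13 and 14. The region at chr7:138929201-138933800 held 2 old control calls bridged by a young control call of 1100 bp, and it overlapped the authors' list of regions higher in old control than in old TSA. At chr13:93403101-93407700 a young call of 1600 bp and an old call of 3400 bp had 400 bp in common, and the nearest call of each TSA library was 1100 bp away. At chr14:67952101-67956700 the young call of 1500 bp lay wholly inside an old call of 4600 bp.

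The region at chr1:162272701-162277100 was the most isolated of the 10, with 38900 bp to the nearest TSA call. Where a control had 2 calls in a region, their widths were added. In 7 of the 10 old control was then the wider, as at chr11:68800001-68804200 (3600 bp against 1300 bp) and chr5:43420401-43424300 (3900 bp against 1500 bp). Young control was the wider in the other 3. Among these were chr13:63132901-63137200, with a young call of 3300 bp, and chr5:118527601-118531600, with 3100 bp and only 100 bp in common with the old call. Also among them was chr7:4690001-4694000, with 2 young calls, of 3700 bp together, joined by an old call of 1900 bp. Besides the chromosome 7 region named first, chr4:108298001-108302000 was in the old list of control over TSA. None of the 10 was in the young list. Of all autosomal merged regions, 2.56% were in the old and 0.274% in the young list. Among control-only shared regions whose old control call was over 1900 bp, 15.6% were in the old list. For 10 regions chosen by width these counts are a description only.

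Regions with identical boundaries in both controls are those where the calls coincide exactly. Among the 273 such regions the widest were 1900 bp, a width that 93 of them (34.1%) had. With ties broken by position, the first 5 all lay on chromosome 1. They were chr1:11129301-11131200, chr1:20667501-20669400, chr1:29274201-29276100, chr1:53405301-53407200 and chr1:189822501-189824400. Their surroundings differed. The nearest TSA call was 1500 bp from the first, a region of 1600 bp called in young TSA alone. The second lay in a stretch called mainly in the controls: another control-only shared region of 1100 bp (chr1:20658401-20659500) ended 8000 bp before it and a region of old control alone lay between them, and the nearest TSA call was 10800 bp away. The third had no TSA call within 69900 bp. The nearest TSA call was 9100 bp from the fourth and 17600 bp from the fifth.

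The authors also deposited, for each age, a list of regions higher in control than in TSA. These lists come from the contrast that the rule used, so overlap with them in control-only shared regions is a description and reads nothing more. In the young mice, 30 of the 2417 regions (1.24%, 0.839 to 1.77%) overlapped the young list, which took in 0.274% of all autosomal merged regions and 2.07% of those called in young control and not in young TSA. In the old mice, 110 regions (4.55%, 3.76 to 5.46%) overlapped the old list, which took in 2.56% of all autosomal merged regions and 6.32% of those called in old control and not in old TSA. The 30 and 110 regions were 6.55% of the autosomal young list and 2.61% of the old list. None of the 2417 regions overlapped a list of TSA over control (5.00% of all autosomal merged regions were in the young and 2.10% in the old list). The rule leaves out every TSA call, so this would follow if the listed regions lie in TSA calls, which was not checked. The remaining 2278 regions (94.2%) were in no differential list. Each of the 4 lists took in at most 5.00% of all autosomal merged regions, so absence from the lists is not particular to these regions.

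A single region was in the lists of control over TSA at both ages, chr13:12400101-12402500. Of all autosomal merged regions, the young list took in 449 (0.274%) and the old list 4205 (2.56%). How many merged regions of any pattern were in both was not counted, so the single region is a description only. The young call of this region (chr13:12400101-12401100) and its old call (chr13:12400901-12402500) had only 200 bp in common. A region called in old TSA alone lay 800 bp before it, and the nearest young TSA call was 19300 bp away. The calls of the 2 ages thus lay largely side by side in this region.

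Each list sets control against TSA within an age, so the share in it can be described by the calls at the other age. Whether the other age entered the authors' comparison is not stated. The regions compared also differ in width, with median old control calls of 1400 bp in old control alone, 1600 bp in control-only shared regions and 1800 bp in regions shared with young TSA alone. Of the regions called in young control and in no other library, 2.62% (2.33 to 2.94%) were in the young list. The share was 1.24% (0.839 to 1.77%) when old control was called too, 1.22% (0.813 to 1.76%) when old TSA was, and 1.08% (0.696 to 1.61%) when both were. Being called in an old library went with a lower share, and the intervals for old control and old TSA overlapped almost entirely. In the old mice, 6.37% (6.11 to 6.64%) of the regions called in old control alone were in the old list. With young control called as well the share was 4.55%, with young TSA it was 6.82% (6.31 to 7.36%), and with both it was 5.61% (4.79 to 6.52%).

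In the 3 patterns of each list that were split by the width of the control call, the share was higher for wider calls. For old control calls under 1900 bp it was 1.22% (0.739 to 1.91%) in control-only shared regions and 3.16% (2.94 to 3.39%) in regions of old control alone. At 1900 bp the values were 9.25% (7.20 to 11.7%) and 13.7% (12.9 to 14.5%), and above 1900 bp they were 15.6% (10.5 to 21.9%) and 22.5% (20.2 to 24.9%). The share was lower in control-only shared regions in each width class, and the intervals overlapped in the widest only. Regions of old control and young TSA had 1.35% (1.05 to 1.72%), 10.9% (9.84 to 12.1%) and 21.3% (18.8 to 24.0%), with intervals that overlapped those of the control-only shared regions in each class. In the young list, control calls of 1900 bp were listed in 2.72% (1.31 to 4.95%) of control-only shared regions and in 7.69% (6.39 to 9.15%) of regions of young control alone. Under 1900 bp the shares were 0.801% (0.458 to 1.30%) and 1.67% (1.42 to 1.95%), and over 1900 bp they were 7.69% (2.14 to 18.5%) and 12.2% (7.15 to 19.1%), where the intervals overlapped. Regions of young control and old TSA had 0.737% (0.404 to 1.23%), 3.29% (1.66 to 5.82%) and 5.08% (1.06 to 14.1%) in order of width, with intervals that overlapped those of the control-only shared regions in each class.

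**Figure D5:**
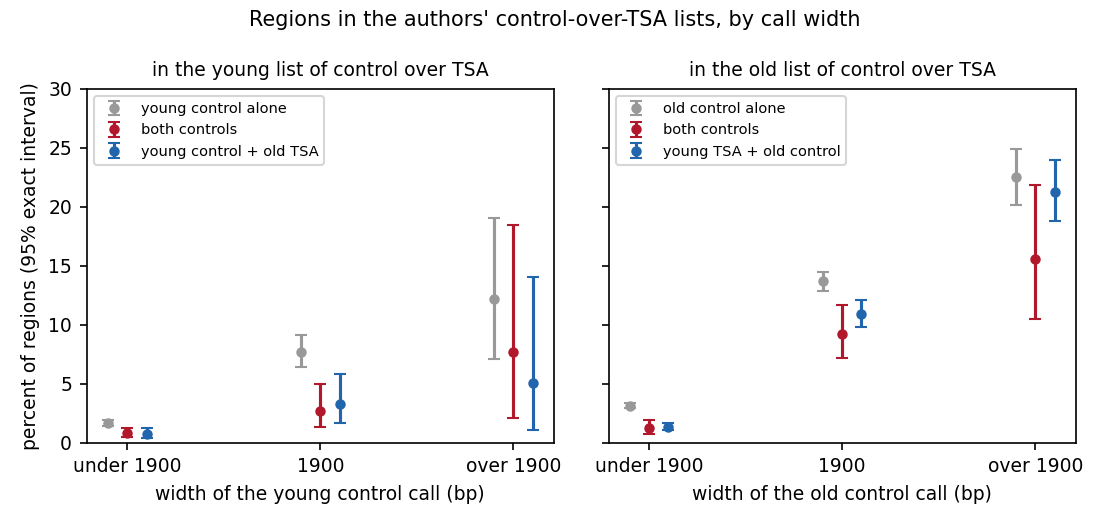
Points give the percent of regions (y axis) in the authors' young (left) and old (right) list of control over TSA, by the width of the control call of that age (x axis), with 95% exact intervals. Control-only shared regions (red) lie below regions of that control alone (grey) at 1900 bp, 2.72% against 7.69% in young and 9.25% against 13.7% in old mice.

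Control-only shared regions often had a TSA call close by. The nearest region of either TSA library was 5100 bp away at the median (quartiles 2000 and 12000 bp), and within 5 kb for 49.9% (47.9 to 51.9%). It was within 1 kb for 13.4% (12.1 to 14.9%). Young TSA had a call within 5 kb of 36.9% (34.9 to 38.8%) of the regions and old TSA of 38.4% (36.4 to 40.3%). Regions of young control alone had a TSA call within 5 kb in 47.1% (46.2 to 48.0%) and regions of old control alone in 44.9% (44.4 to 45.5%). Other patterns were set beside the libraries that they lacked. The crossed pair of young control and old TSA had a call of the missing libraries within 5 kb in 55.1% (53.0 to 57.2%). The other crossed pair, young TSA and old control, had 50.6% (49.6 to 51.6%), an interval that overlapped that of the control-only shared regions. The TSA-only shared regions had a control call within 5 kb in 54.9% (53.8 to 55.9%). These distances depend on the lengths of the lists searched.

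At the edge of the rule, 40 control-only shared regions lay 100 bp from a TSA call and 37 lay 200 bp from it. Just outside, 14 regions called in both controls only touched a TSA call and 23 overlapped it by at most 100 bp. The regions farthest from any TSA call were on chromosomes 2, 5 and 6. The first, chr6:149337401-149339300, had no TSA call within 147100 bp. It was followed by chr6:3714901-3716800 at 131500 bp, chr5:80503401-80505200 at 131300 bp, chr2:97417301-97419200 at 129000 bp and chr6:12157501-12159300 at 106500 bp. In each of these 5 regions the shorter of the control calls, of 1000 to 1300 bp, lay inside the longer.

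The regions were spread over all 19 autosomes in near proportion to the merged regions there. The share of a chromosome's merged regions ranged from 1.19% (1.00 to 1.41%) on chromosome 5 to 1.66% on chromosomes 2 (1.45 to 1.90%) and 10 (1.40 to 1.96%). Chromosome 5 was the only autosome whose interval left out the overall share of 1.47%. The intervals make no allowance for looking at 19 autosomes, so this is a description only. By number, chromosome 2 held the most, 216, and chromosome 19 the fewest, 58. The X chromosome, which the rule leaves out, held 41 regions of the same pattern among 3258 merged regions, and none was on chromosome Y or M.

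Neighbouring control-only shared regions were far apart, at a median of 293700 bp (quartiles 111500 and 632100 bp). Another one lay within 50 kb for 13.0% (11.7 to 14.4%), and the equally rare crossed pair of young control and old TSA had 13.4% (12.0 to 14.8%). Of 2413 windows of 1 Mb that held any called region, 40.1% had no control-only shared region, 33.6% had 1, and 5 had 6 or more. The fullest window, from 87 to 88 Mb of chromosome 10, held 7 among its 81 merged regions (8.64%). The 5 widest of them were chr10:87985701-87988600, chr10:87779601-87781500, chr10:87347301-87349000, chr10:87315001-87316600 and chr10:87728601-87730200. The second of these was in the old list of control over TSA and the others were in neither list. At chr10:87315001-87316600 the calls of both controls coincided. The other calls in this window were mixed, with 13 regions of old control alone, 12 of young TSA alone and 6 of all 4 libraries.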

How the data were processed

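Accessible regions were measured by NA-seq in 4 libraries of sorted FAPs, 1 per group, grouped by the sample titles. Per the labels' protocols, open chromatin was cut with NlaIII or HpaII in nuclei, and Sau3AI followed on the purified DNA. The submitters' processing notes name Bowtie 0.12.7 and mm9. How regions were called and how differential regions were tested is not stated there. The 8 lists that the authors deposited give chromosome, start and end, with no counts, scores or other values. A differential list deposited with a control library was read as control over TSA, and the reverse.

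Merging and overlaps used Python 3.11.15 with pandas 2.3.3 and numpy 2.4.6, intervals used scipy 1.17.1, and plots matplotlib 3.10.9. Overlap with a differential list means at least 1 bp. The functions were tested on simulated patterns planted on 80626 regions and against brute force, and 21 of 21 checks matched. The regions and the lists were chosen with earlier results of these data known. Named regions followed a rule: the 10 widest, any in both lists of control over TSA, the 5 widest with identical boundaries, the 5 widest of the fullest 1 Mb window and the 5 farthest from a TSA call. Neighbours of named regions were described after their values were seen. Alternatives were another merging gap, a stricter overlap, wider regions only and all chromosomes. The planned joins to genes, gene lists and sequence were not made, since the tables used here are of GRCm38.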

Additional observations from a re-analysis of the deposited data

How the results depend on the processing

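Of 32 recomputed values, 20 stayed within 1.5 times the count or within the interval of the value in the report. With regions up to 500 bp apart merged, the share of TSA-free control regions found in the other control was 19.5% from the young and 7.42% from the old side, and 45.7% of control-only shared regions had a TSA call within 5 kb. With an overlap of at least 50% of the shorter region required, the shares were 16.5% and 6.30%. With the rule applied again to called regions of 1900 bp or wider only, there were 520 control-only and 4414 TSA-only shared regions. The shares were 14.3% and 2.85%, and the median width was 2100 bp. Of the 520 regions, 6.35% were in the old list of control over TSA. A TSA call of 1900 bp or wider lay within 5 kb of 33.8%. This filter shortens every list, also those of TSA. A region whose only TSA calls are narrower thus counts as control-only here, and the 520 regions are not all among the 2417. The ratio to the crossed pair of young control and old TSA was 1.05 in the report, 1.08 with the 500 bp gap, 1.09 for wide regions and 1.06 on all chromosomes. No paired analysis was possible because the lists hold no counts or scores that a model with age as a block could be fitted to. Leaving out a library would leave its group empty. Depth is unknown, so calls near the authors' threshold could not be told from firm ones.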
